A study of Drosophila melanogaster with 6 samples.

Results

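The delta class glutathione transferase genes GstD1 to GstD10 of the fruit fly Drosophila melanogaster were described in 6 libraries of polyadenylated RNA from adult progeny. Members were the rows of the deposited table whose symbol is GstD followed by a number from 1 to 10, which gave 10 genes of 15010. All 6 libraries carry the tissue label intestine, and in both groups the fathers were Oregon R. Mothers of the 3 control libraries were MTD-GAL4/+, and MTD-GAL4 is a driver active in the female germline. Mothers of the 3 InR-DN libraries were MTD-GAL4/InR-DN, and in their germline a dominant-negative insulin receptor was expressed. The mothers of both groups thus carried MTD-GAL4. The labels give neither the age nor the sex of the progeny, nor which progeny inherited a transgene, so an effect of the maternal germline and an effect of an inherited transgene cannot be told apart. The comparison addresses how metabolic stress of the mother bears on her offspring.

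Glutathione transferases are enzymes that join the tripeptide glutathione to reactive, electrophilic molecules such as plant toxins, insecticides and products of lipid peroxidation. In insects the delta and epsilon classes have expanded into gene clusters, and their enzymes are best known for the detoxification of food-borne and environmental compounds. In the fly, GstD1 is a much used target gene of the transcription factor CncC, the counterpart of mammalian Nrf2, which is held in check by Keap1, and reporters built from its control region serve to follow oxidative stress in the gut. GstD1 also has activity against the insecticide DDT, and GstD2 acts on plant isothiocyanates. GstD3 encodes a shortened protein that lacks part of the amino-terminal domain that binds glutathione.

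The libraries held 33935336 to 45161715 whole reads recovered from the TPM values, which gives the reads behind each value of the 10 members. TPM is a level per transcript length and library total, and levels of different genes can be set beside each other. Nothing in the labels tells whether libraries of a group are separate flies or crosses, and the spread that p-values measure may therefore be technical. No 2 libraries of a group agreed within sampling noise. InR-DN replicates 1 and 2 stood furthest apart (chi-square per degree of freedom of 99.1, against 22.4 to 52.9 for the other pairs within groups). GstD1 and GstD9, whose groups overlapped through 1 of these libraries, are also given without it. The defining markers of the gut were abundant, with the trypsin gene alphaTry at 4767 to 7517 TPM. Markers of other body parts were present too, some at higher values than alphaTry. The oenocyte gene Cyp4g1 lay at 6425 to 10139 TPM, and the yolk protein gene Yp1, of the fat body list, at 6162 to 9482 TPM. Of the 12 genes of the fat body list, however, 6 reached 1 TPM in every library and 5 were below 1 TPM in all 6. The rhodopsin gene ninaE lay at 2249 to 3015 TPM, the oocyte gene osk at 751 to 866 TPM and the kidney-tubule gene Uro at 84.8 to 128 TPM. The eggshell gene Cp36, of the same list as osk, varied from 0.193 to 498 TPM. The sum of that list ran from 1316 TPM in control replicate 1 to 2597 TPM in control replicate 2. The values therefore describe libraries labelled intestine, and in such bulk RNA fewer cells of a type and less RNA per cell cannot be told apart.

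The 10 genes lie in 1 cluster of 16040 bases on chromosome arm 3R, from position 12364776 to position 12380815 in the BDGP6.54 annotation. The labels and the table do not state the genome build, and these positions come from matching symbols to that annotation. GstD10, GstD9 and GstD1, in this order from the left, are on the minus strand and have 2 exon blocks each. GstD2, GstD3, GstD4, GstD5, GstD6, GstD7 and GstD8 follow on the plus strand, each as an uninterrupted exon. GstD1 (FBgn0001149, 12367817 to 12369268) and GstD2 (FBgn0010038, 12371971 to 12372704) are transcribed away from each other, with start sites 2703 bases apart, and the other gaps between members are smaller. Between these members lies the annotated noncoding gene lncRNA:CR46015, on the plus strand, with its start site 1239 bases from that of GstD1. None of the 10 overlaps another annotated gene on either strand. Exon lengths ran from 725 to 876 bases, and for all 10 the annotated length returned whole reads in every library. Members are similar in sequence, so reads that fit more than 1 of them could have been split or dropped in counting, and the handling of such reads is not stated in the labels or the table.

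**Figure D1:**
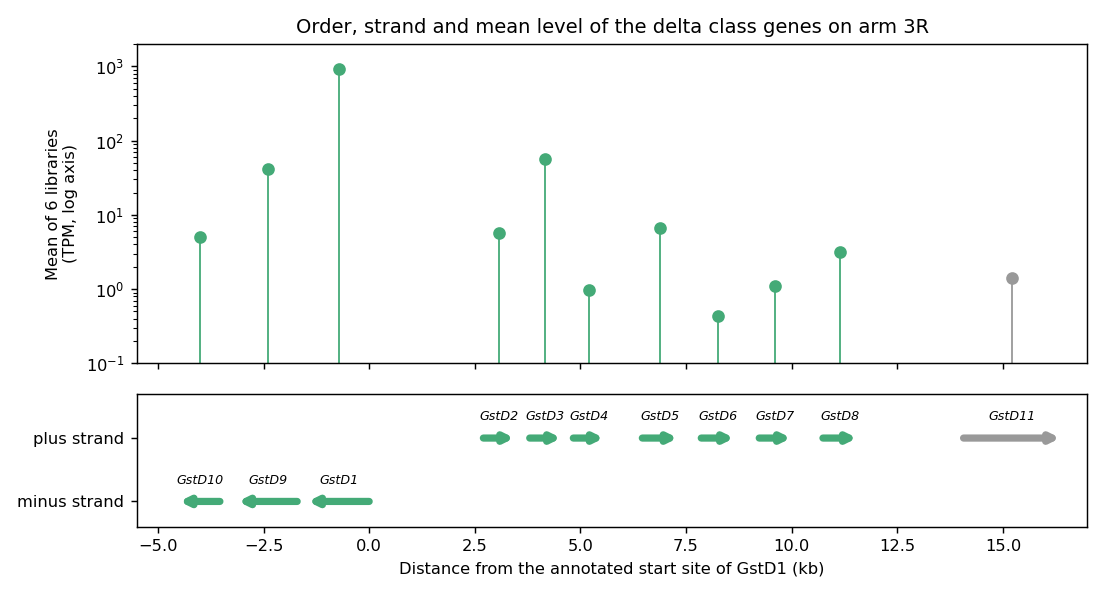
Upper panel, mean level of each delta class gene over the 6 libraries (TPM, log axis), and lower panel, the genes as arrows on their strand, both against distance in kb from the annotated start site of GstD1. GstD1 stands at 910.1 TPM, while GstD2, the nearest member on the plus strand, stands at 5.68 TPM. GstD11, drawn in grey, is a delta class gene outside the numbered set, and genes of other families are not drawn.

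GstD1 dominated the class. It was the gene with the rank 152 of 15010 by mean TPM and averaged 910.1 TPM over the 6 libraries, 16.2 times the level of GstD3, which came next. In control replicates 1 to 3 it lay at 836, 835 and 911 TPM. In the 3 InR-DN libraries, in the same order of replicate number, it lay at 999.9, 853 and 1025 TPM. GstD1 made up 85.8% to 90.1% of the summed delta class TPM in every library, and 27.3% to 32.6% of the summed TPM of 36 glutathione transferase genes of all classes.

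The other members lay well below GstD1, and several neighbours in the order of mean level could not be separated. GstD3 averaged 56.2 TPM and GstD9 averaged 41.1 TPM. Their ranges over the libraries overlapped, with GstD3 higher than GstD9 in 5 of 6 libraries. GstD5 (6.57 TPM), GstD2 (5.68 TPM) and GstD10 (5.05 TPM) formed a group whose ranges overlapped, followed by GstD8 at 3.17 TPM. GstD8 was below GstD10 in all 6 libraries but overlapped with GstD5 and GstD2, and lay above GstD2 in control replicates 1 and 3. GstD7 averaged 1.09 TPM and GstD4 averaged 0.977 TPM, and these neighbours in the order changed places between libraries. GstD6 was the lowest member at 0.432 TPM and lay below GstD4 in all 6 libraries. The mean level of the highest member was thus 2106 times that of the lowest, against 64.3 times among the 14 epsilon class genes. Of the delta class, 3 of 10 genes exceeded 10 TPM on average, against 11 of 14 in the epsilon class.

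**Figure D2:**
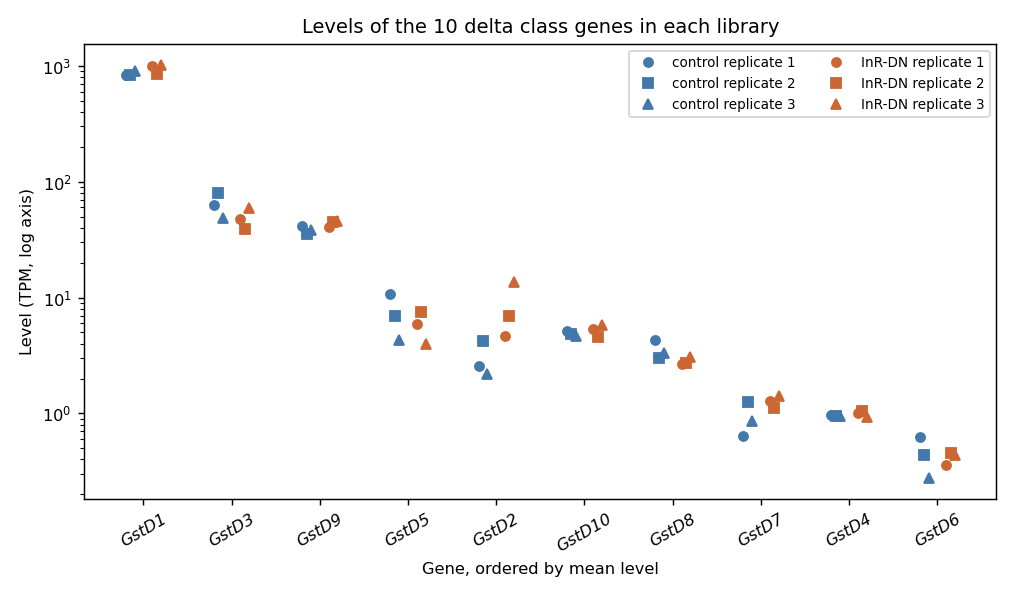
Level of each delta class gene (TPM, log axis) in each library, with control libraries in blue, InR-DN libraries in orange and a symbol for each replicate number. GstD1 lies between 835 and 1025 TPM, far above all other members, and GstD2 is the gene whose control and InR-DN points do not overlap.

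Of the 10 genes, 8 reached at least 1 TPM in at least 3 libraries and were tested with limma on log2(TPM + 1). None passed an adjusted p of 0.05. Of all 10816 genes tested 0 passed (0% called), with 341 at an unadjusted p under 0.05. Among the members GstD2, 1 of the 8, had an unadjusted p under 0.05, against 3.15% of all genes tested. The limma voom fit of recovered reads also called 0 members, of 9 tested (0.00872% of all genes called), and again GstD2 alone had an unadjusted p under 0.05, against 3.09% of all genes in that fit. On the log2(TPM + 1) scale 5 of the 8 had a higher and 3 a lower mean in InR-DN progeny, with a median log2 fold change of 0.12, against 0.01 over all genes tested and a higher mean for 54.6% of them. GstD7 met the filter with 1 control and 3 InR-DN libraries, so its passing already depended on the group where it was higher. The groups did not overlap for 1 of the 8, GstD2, against 6.36% of all genes tested.

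GstD2 was the member that differed most between the groups, although it did not pass. In control replicates 1 to 3 GstD2 lay at 2.57, 4.20 and 2.17 TPM, from 35, 72 and 37 reads. In InR-DN replicates 1 to 3 it lay at 4.69, 6.88 and 13.6 TPM, from 61, 113 and 176 reads. All 3 InR-DN libraries were above all 3 control libraries, but InR-DN replicate 1 was only just above control replicate 2, and the counting intervals of these 2 libraries overlapped (3.59 to 6.02 against 3.29 to 5.29 TPM, exact 95% Poisson intervals, which cover counting error only). The means were 2.98 ± 1.08 TPM in controls and 8.38 ± 4.63 TPM in InR-DN progeny (SD, n = 3 per group), a ratio of 2.81.

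The limma fit put the log2 fold change of GstD2 at 1.16 ± 0.36 (standard error), with a 95% interval of 0.30 to 2.02 (unadjusted p = 0.0158, adjusted p = 1.00). Of the 10816 genes tested, 140 had a smaller unadjusted p and 1.14% had a change at least as large in either direction. The two-sided exact permutation test gave p = 0.1, the smallest that 3 against 3 libraries allow. Without InR-DN replicate 3, the library highest in GstD2, the log2 fold change was 0.78, and leaving out any other library gave 1.01 to 1.46. Without control replicate 3 the unadjusted p was 0.0531.

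Relative to GstD1, the nearest member across the start sites, GstD2 was also unevenly distributed. Per 1000 TPM of GstD1 there were 3.07, 5.04 and 2.39 TPM of GstD2 in control replicates 1 to 3. In InR-DN replicates 1 to 3 there were 4.69, 8.06 and 13.3 TPM, so that InR-DN replicate 1 lay below control replicate 2 on this ratio and the groups overlapped. The highest GstD2 value was 6.25 times the lowest over the 6 libraries, and 3.16 times without InR-DN replicate 3. GstD2 had the widest such spread of all 37 glutathione transferase genes, GstD11 included, and 3.22% of all genes tested had a spread at least as wide. Without InR-DN replicate 3 it was also the widest of the 37, and 4.83% of all genes tested had a spread at least as wide.

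Summed marker levels were set beside GstD2, and their part in its values was not tested. The oenocyte list (4 of 6 markers in the table, all 4 at 1 TPM or more in every library) was the 1 list of 10 whose sums did not overlap between the groups. It lay at 10488 to 11937 TPM in controls and at 7574, 10389 and 8394 TPM in InR-DN replicates 1 to 3. The sum was thus lower in InR-DN progeny, where GstD2 was higher, while both rose from InR-DN replicate 1 to InR-DN replicate 2. The enterocyte list (13 of 14 markers in the table, all above 1 TPM) summed to 24128 to 25717 TPM in controls. In InR-DN replicates 1 to 3 it summed to 17372, 21967 and 25517 TPM, the same order as GstD2 in this group. In control replicates 1 to 3 it summed to 24128, 25717 and 24361 TPM, beside GstD2 at 2.57, 4.20 and 2.17 TPM. The order of the enterocyte sums thus differed from that of GstD2 in controls. The Malpighian tubule list (11 of 11 markers) summed to 614, 631 and 482 TPM in control replicates 1 to 3. In InR-DN replicates 1 to 3 it summed to 504, 580 and 583 TPM. This list had the same order as GstD2 within each group, while its sums overlapped between the groups. No marker of these lists was at 0 in all libraries.

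**Figure D3:**
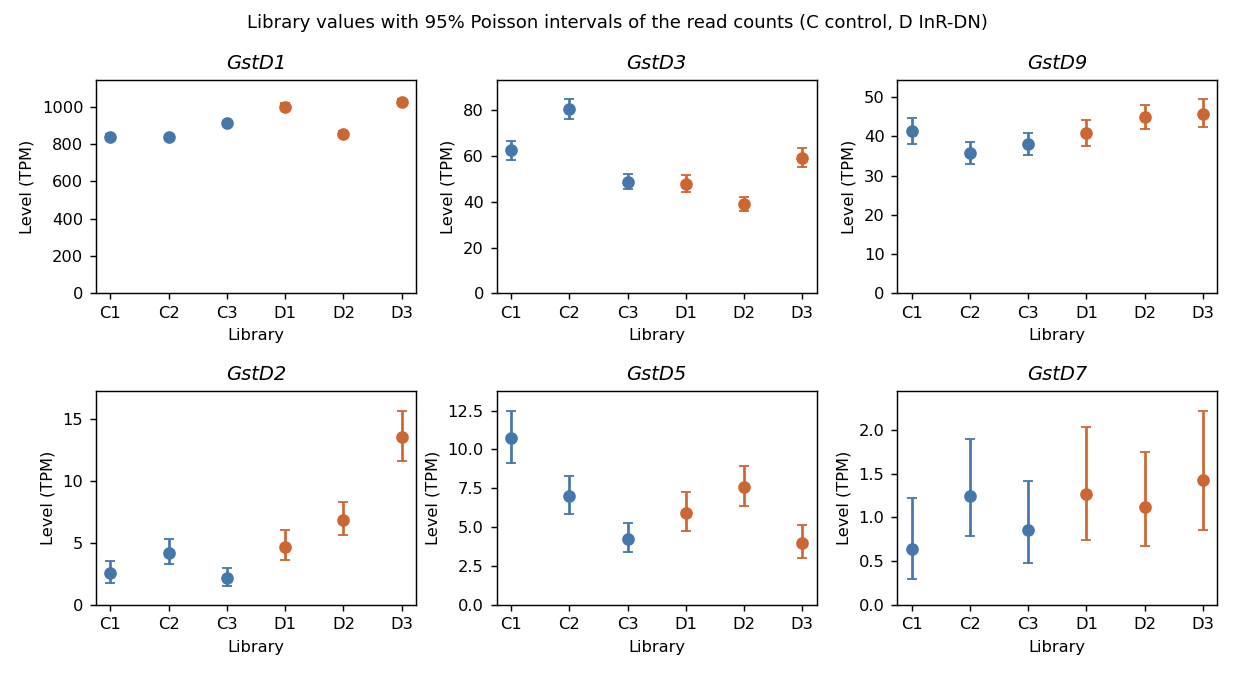
Level (TPM) of 6 delta class genes in control libraries (C1 to C3, blue) and InR-DN libraries (D1 to D3, orange), with exact 95% Poisson intervals of the recovered reads as bars, which cover counting error only. GstD2 runs from 2.17 TPM in C3 to 13.6 TPM in D3, while GstD5 runs from 3.98 TPM in D3 to 10.7 TPM in C1.

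GstD1 and GstD9 were slightly higher in InR-DN progeny, within the spread between libraries. GstD1 averaged 861 ± 43.8 TPM in controls and 959 ± 92.7 TPM in InR-DN progeny (SD, n = 3 per group), and InR-DN replicate 2 lay below control replicate 3. Its log2 fold change was 0.15 (standard error 0.09) with a 95% interval of -0.05 to 0.36 (limma adjusted p = 1.00). Leaving out InR-DN replicate 2, which lay inside the control range, removed the overlap for GstD1 by construction. The log2 fold change was then 0.23 (unadjusted p = 0.00891, limma adjusted p = 0.473). Leaving out any other library gave 0.10 to 0.19 (unadjusted limma p of 0.104 to 0.33). In the fit without InR-DN replicate 2, 8.66% of all genes had an unadjusted p under 0.05, against 3.15% with all 6 libraries.

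GstD9, which lies between GstD1 and GstD10, was at 41.3, 35.7 and 38.0 TPM in control replicates 1 to 3. In InR-DN replicates 1 to 3 it was at 40.8, 44.8 and 45.8 TPM. The groups overlapped only through control replicate 1 and InR-DN replicate 1. With all 6 libraries the log2 fold change of GstD9 was 0.19 (standard error 0.09) with a 95% interval of -0.02 to 0.40 (limma adjusted p = 1.00). Without InR-DN replicate 1 it was 0.24 (unadjusted p = 0.0385, limma adjusted p = 1.00). In that fit 3.48% of all genes had an unadjusted p under 0.05. Leaving out any other library gave 0.14 to 0.24 (unadjusted limma p of 0.0588 to 0.233). GstD10 lay at 4.63 to 5.10 TPM in controls and 4.59 to 5.75 TPM in InR-DN progeny, with a log2 fold change of 0.08 and a 95% interval of -0.19 to 0.35.

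GstD3 and GstD5 had lower means in InR-DN progeny, but their values did not divide by group. GstD3, the gene of the shortened protein, lay at 62.4, 80.5 and 48.6 TPM in control replicates 1 to 3. In InR-DN replicates 1 to 3 it lay at 47.7, 39.0 and 59.1 TPM, so that InR-DN replicate 3 exceeded control replicate 3. The log2 fold change of GstD3 was -0.38 (standard error 0.21) with a 95% interval of -0.89 to 0.13 (limma adjusted p = 1.00). It was -0.20 without control replicate 2, the library highest in GstD3, and -0.56 without control replicate 3.

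GstD5, an intronless gene of the plus strand, lay at 10.7, 6.99 and 4.26 TPM in control replicates 1 to 3. In InR-DN replicates 1 to 3 it lay at 5.91, 7.55 and 3.98 TPM, inside the control range apart from the lowest library. The log2 fold change of GstD5 was -0.25 (standard error 0.32), and its 95% interval, -1.02 to 0.52, was among the widest of the members. Without control replicate 1 the sign turned, to 0.04. GstD2 and GstD5 have similar mean levels, and InR-DN replicate 3 was the highest library for GstD2 and the lowest for GstD5.

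GstD8, GstD7, GstD4 and GstD6 were low, and their values were limited by counting. GstD8 averaged 3.53 ± 0.652 TPM in controls and 2.82 ± 0.235 TPM in InR-DN progeny (SD, n = 3 per group), from 38 to 64 reads per library. Its log2 fold change was -0.24 with a 95% interval of -0.58 to 0.09 (limma adjusted p = 1.00), and InR-DN replicate 3 lay above control replicate 2. GstD7 lay at 0.641 to 1.25 TPM in controls and at 1.12 to 1.42 TPM in InR-DN progeny, from 9 to 22 reads per library, with a log2 fold change of 0.26 and a 95% interval of -0.12 to 0.64. The counting intervals of the lowest GstD7 library (0.293 to 1.22 TPM) and the highest (0.857 to 2.22 TPM) overlapped.

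GstD4 and GstD6 did not meet the filter and have no test in the limma fit. GstD4 lay at 0.937 to 1.05 TPM in all 6 libraries, from 12 to 17 reads, with group means of 0.955 and 0.999 TPM in controls and InR-DN progeny. GstD6 lay at 0.276 to 0.622 TPM, from 5 to 9 reads per library, with group means of 0.446 and 0.418 TPM. Both were above the floor of 3 reads in every library, which for GstD6 stands at 0.165 to 0.218 TPM. In the limma fit without the filter, GstD4 had a log2 fold change of 0.03 with a 95% interval of -0.12 to 0.19, and GstD6 of -0.02 with an interval of -0.25 to 0.21 (adjusted p = 0.999 for both). At these levels the pseudocount of 1 compresses changes. In the voom fit of reads, GstD4 had a log2 fold change of 0.07 (standard error 0.22).

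The spread between libraries exceeded counting error for some members and not for others. Within controls the coefficient of variation of GstD1 was 5.09%, against 0.803% from counting alone, that of GstD3 was 25.0% against 3.19%, and that of GstD5 was 44.2% against 9.19%. Within the InR-DN group GstD2 varied by 55.3%, against 10.2% from counting. In contrast, GstD10 varied by 4.90% in controls and 11.3% in InR-DN progeny, against 10.4% and 10.7% from counting, and GstD4 varied by less than its counting error in both groups.

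**Figure D4:**
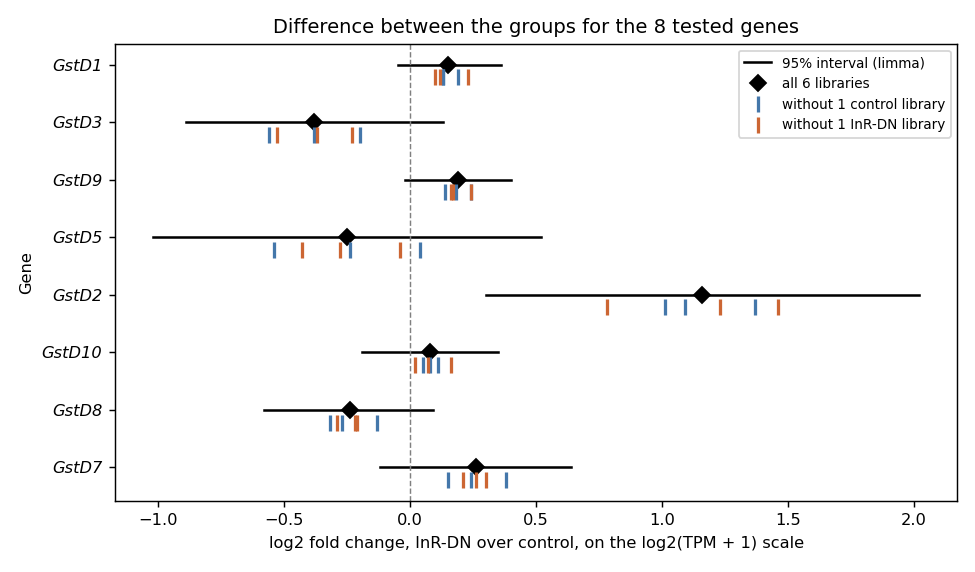
Log2 fold change of InR-DN over control on the log2(TPM + 1) scale for the 8 tested members, ordered by mean level, with the estimate of all 6 libraries (diamond), its 95% limma interval (line) and the estimates with 1 library left out (ticks, blue for a control and orange for an InR-DN library). GstD2 is the member whose interval, 0.30 to 2.02, excludes 0 before adjustment over all genes, and GstD5 is the member whose sign turns, to 0.04, when a control library is left out.

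Neighbouring members did not move as a block over the libraries. Of 28 pairs of tested members, 16 had a positive and 12 a negative Pearson correlation of log2(TPM + 1) over the 6 libraries. The median was 0.09 and the range ran from -0.81 (GstD7 and GstD8) to 0.79 (GstD2 and GstD7). Both extremes involve GstD7, which rests on 9 to 22 reads per library, and counting error enters all pairs with low members. Among the 3 members over 10 TPM the correlations were 0.41 (GstD1 and GstD9), -0.23 (GstD1 and GstD3) and -0.54 (GstD3 and GstD9). These are descriptions over 6 libraries that differ in depth and in marker levels, which all members share within a library. The 3 minus-strand genes correlated positively with each other, at 0.72 for GstD1 and GstD10, 0.41 for GstD1 and GstD9 and 0.40 for GstD9 and GstD10. The plus-strand gene GstD2 correlated with the same 3 genes at 0.70 (GstD9), 0.58 (GstD10) and 0.54 (GstD1), so the signs did not follow the strand. GstD2 and its plus-strand neighbour GstD3 had a correlation of -0.09. InR-DN replicate 3 was the highest library for 5 of the 10 genes (GstD1, GstD2, GstD7, GstD9 and GstD10), and control replicate 1 for 3 (GstD5, GstD6 and GstD8).

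Summed over the 10 genes, the class lay at 965, 973 and 1015 TPM in control replicates 1 to 3 and, for InR-DN replicates 1 to 3, at 1109.6, 961.5 and 1159 TPM. The log2 ratio of the group means was 0.13, and InR-DN replicate 2 was the lowest of all 6 libraries, so the groups overlapped. This sum is carried by GstD1. Without GstD1 the other 9 genes summed to 123 ± 18.1 TPM in controls and 117 ± 14.5 TPM in InR-DN progeny (SD, n = 3 per group), a log2 ratio of -0.07.

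The genes whose levels were most like those of GstD1 over the 6 libraries were Vps36, CG31053, MED7, CG10418 and CG3032 (Pearson r of log2(TPM + 1) from 0.983 to 0.992), and 45 of 10815 other genes reached at least 0.95. Those most like GstD2 were CG17751, CG5010, CG2065, CG12321 and cl (0.965 to 0.983), and 8 genes reached at least 0.95. CG2065 had a spread of similar size, at 9.66, 10.5 and 5.74 TPM in control replicates 1 to 3 and 10.1, 20.1 and 37.5 TPM in InR-DN replicates 1 to 3. The other 4 genes listed for GstD2 had narrower ranges, with cl at 195 to 218 TPM. With 6 libraries and this many genes, such likeness is a description.

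The other glutathione transferases were read beside the delta class. GstD11, a delta class gene that lies beyond GstD8 and has 4 exon blocks, averaged 1.50 ± 0.247 TPM in controls and 1.30 ± 0.471 TPM in InR-DN progeny (SD, n = 3 per group). In the epsilon class, which shares the role of the delta class in detoxification, 0 of 14 tested genes passed the limma test and 0 had an unadjusted p under 0.05 (voom called 0 as well). Of these 14, 7 had a higher and 7 a lower mean in InR-DN progeny, with a median log2 fold change of 0.01 and a range from -0.19 (GstE5) to 0.29 (GstE9). GstE1 lay at 133 to 152 TPM in controls and at 149 to 160.0 TPM in InR-DN progeny. GstE9 was steady in controls, at 115 to 119 TPM, and lay at 109, 192 and 142 TPM in InR-DN replicates 1 to 3. In the limma fit without InR-DN replicate 1, GstE9 had an unadjusted p under 0.05, as did GstE3, a gene named outside the naming rule. In that fit 3.48% of all genes had an unadjusted p under 0.05, and neither gene passed the adjusted threshold. The epsilon genes with such a p changed with the library left out. They were GstE8 and GstE10 without control replicate 3 (3.91% of all genes) and GstE14 without InR-DN replicate 2 (8.66%), also named outside the rule. GstE12 was the most abundant epsilon gene at 269 TPM, well under the level of GstD1. The median spread of highest over lowest library was 1.84 in the delta class, 1.45 in the epsilon class and 1.33 over all genes tested. The delta value includes GstD4 and GstD6, which did not meet the filter. Counting error widens this ratio at low levels, and 3 of 10 delta genes exceeded 10 TPM against 11 of 14 epsilon genes.

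Among the omega, sigma, theta, zeta and microsomal classes 0 of 12 tested genes passed the limma test and 2 had an unadjusted p under 0.05, against 3.15% of all genes tested. GstS1, the sigma class enzyme that conjugates products of lipid peroxidation, averaged 82.7 ± 5.26 TPM in controls and 99.7 ± 8.16 TPM in InR-DN progeny (log2 fold change 0.27, unadjusted p = 0.0198, limma adjusted p = 1.00). The theta class gene GstT3 lay at 52.7 to 67.7 TPM in controls and at 41.7 to 51.6 TPM in InR-DN progeny (log2 fold change -0.33, unadjusted p = 0.0333, limma adjusted p = 1.00). The theta class gene GstT2 lay at 93.9 to 96.4 TPM in controls and at 83.8 to 92.4 TPM in InR-DN progeny (log2 fold change -0.10, unadjusted p = 0.196). The groups did not overlap for GstS1, GstT2 and GstT3, 3 of the 12, nor for GstE5 among the 14 epsilon genes, against 6.36% of all genes tested. The theta class gene GstT1, the most abundant of these classes at 160.3 TPM, had a log2 fold change of -0.03.

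**Figure D5:**
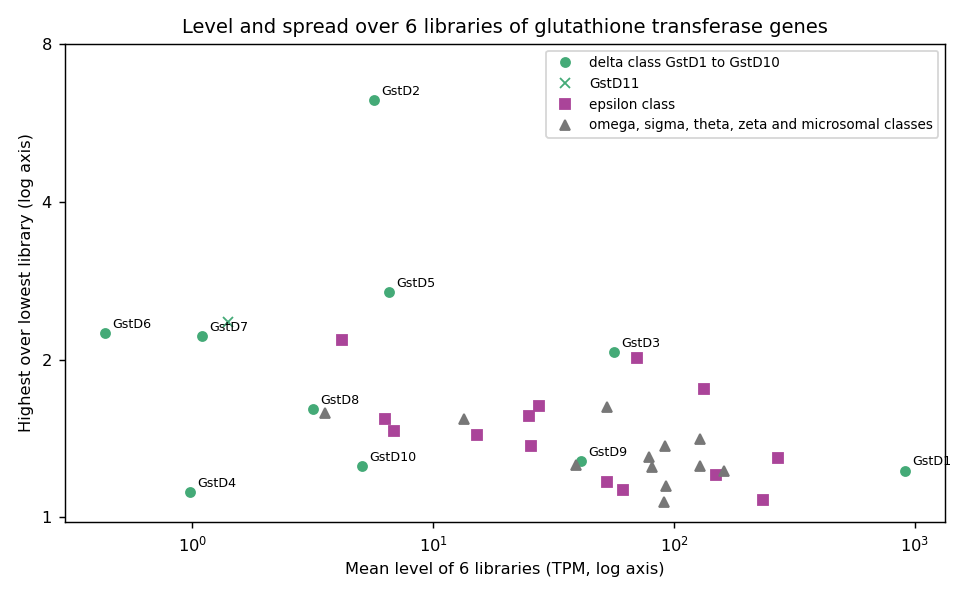
Spread over the 6 libraries, as highest over lowest value (log axis), against mean level (TPM, log axis) for 37 glutathione transferase genes, with delta class genes in green and named. GstD2 has the widest spread, at 6.25 (3.16 without InR-DN replicate 3), and GstD1 combines the highest level, 910.1 TPM, with a spread of 1.23.

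The regulators and partners of the class came next. Of 18 genes of glutathione synthesis and the Nrf2 pathway fixed for this description, 17 were in the table and 15 were tested. None passed the limma test and 0 had an unadjusted p under 0.05 (voom called 0 as well), with 10 higher and 5 lower means and a median log2 fold change of 0.05. The members with the smallest p were the heme oxygenase gene Ho (log2 fold change 0.17, unadjusted p = 0.0558), the mitochondrial superoxide dismutase gene Sod2 (log2 fold change 0.12, unadjusted p = 0.12) and the thioredoxin peroxidase gene Jafrac1 (log2 fold change 0.17, unadjusted p = 0.16). The groups did not overlap for 3 of the 15 (Ho, Keap1 and maf-S), against 6.36% of all genes tested. The factor that drives GstD1, encoded by cnc, lay at 84.1 ± 2.48 TPM in controls and 85.1 ± 4.27 TPM in InR-DN progeny (SD, n = 3 per group), and its log2 fold change was 0.02. The gene of its inhibitor, Keap1, lay at 18.3 ± 0.458 and 16.8 ± 0.548 TPM, with a log2 fold change of -0.12 (limma adjusted p = 1.00). Gclc and Gclm, which encode the subunits of the first enzyme of glutathione synthesis, had log2 fold changes of -0.02 and -0.01. cnc, Keap1, maf-S, Gclc and Gclm were chosen after their values were seen.

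Cytochrome P450 enzymes of xenobiotic metabolism often act on a compound before a glutathione transferase does. Of 31 tested genes in this list 0 passed the limma test and 1 had an unadjusted p under 0.05, against 3.15% of all genes tested. In the list 21 genes had higher and 10 lower means, with a median log2 fold change of 0.07. Cyp6a9 averaged 13.8 ± 4.85 TPM in controls and 20.9 ± 2.68 TPM in InR-DN progeny (log2 fold change 0.61, unadjusted p = 0.0307, limma adjusted p = 1.00). Its control replicate 3 lay at 19.3 TPM, above InR-DN replicate 1 at 18.3 TPM. Cyp6a8 averaged 58.0 ± 8.24 TPM in controls and 40.5 ± 14.0 TPM in InR-DN progeny, a log2 fold change of -0.55, and Cyp28d1 had a log2 fold change of 0.26 (limma adjusted p = 1.00 for both). Across the 73 tested genes of these lists, GstD11 included, the fit of recovered reads with limma voom called 0. It gave 3 with an unadjusted p under 0.05, against 3.09% of all genes in that fit. They were the same 3 as on TPM (Cyp6a9, GstS1 and GstT3), from the same 6 libraries. In the limma fit, leaving out control replicates 1 to 3 in turn gave 0, 0 and 5 such genes of the 73. Leaving out InR-DN replicates 1 to 3 in turn gave 8, 11 and 1. The shares of all genes were 2.45%, 2.63% and 3.91% without control replicates 1 to 3 in turn. Without InR-DN replicates 1 to 3 in turn they were 3.48%, 8.66% and 3.3%.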

How the data were processed

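The authors deposited a table of TPM values per gene and library, per the file headers, with 15010 genes. TopHat and edgeR are named, without versions or roles, per the submitters' processing notes. RNA extraction used Trizol or Tripure, and polyadenylated RNA was sequenced, per the labels' protocols. Whole reads were recovered from TPM and BDGP6.54 exon lengths. Values were whole for 94.7% of genes with a length (relative tolerance 1e-06). Another 938 were solved with the shortest length that gave whole reads, which can understate them.

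Group was the single term in a limma 3.58.1 fit (R 4.3.3) of log2(TPM + 1) with an intensity trend. Genes needed 1 TPM or more in at least 3 libraries (10816), and p-values were adjusted over all of them by Benjamini-Hochberg, with a threshold of 0.05. The pseudocount of 1 understates fold changes of low genes. The fit was tested on simulated data. The alternatives changed the pseudocount (0.1 or 5), the filter (none, or 5 TPM) or the scaling (median of ratios, or quantiles), dropped the trend, added a replicate block, used limma voom on recovered reads (10 or more in at least 3 libraries), or left out a library. Read intervals are exact Poisson intervals at 95%, and floors are 3 reads per library.

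All members are named. Of each other list the 3 genes with the smallest unadjusted p are named, with GstD11 and the most abundant gene of each transferase list, and for likeness the 5 genes with the highest correlation. Genes named outside this rule are marked. The members and lists were chosen with earlier results of these data known.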

Additional observations from a re-analysis of the deposited data

How the results depend on the processing

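No GstD gene and no gene of the other transferase, glutathione and P450 lists passed an adjusted p of 0.05 under any of the 15 alternatives. Over all genes the count was 0 with all libraries, 1 with a pseudocount of 0.1, 1 with voom on recovered reads, and 0 to 3 when 1 library was left out (3 without control replicate 2). The sign of every tested member was the same in all alternatives that gave it a value, except for GstD5, which turned from -0.25 to 0.04 without control replicate 1, the library with its highest value (10.7 TPM). The log2 fold change of GstD2 was 0.70 with a pseudocount of 5 and 1.38 with a pseudocount of 0.1 or with voom, and 0.78 to 1.46 when 1 library was left out. It has no value under the filter of 5 TPM, which 5 of the 10 members met, since it reached that level in too few libraries. The spread of GstD2, highest over lowest library, fell from 6.25 to 3.16 without InR-DN replicate 3, an alternative chosen after seeing the data. Leaving out 1 library gave 0.10 to 0.23 for GstD1, 0.14 to 0.24 for GstD9, -0.56 to -0.20 for GstD3, -0.54 to 0.04 for GstD5 and 0.07 to 0.20 for the log2 ratio of the summed class.

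Replicate numbers are shared by the groups without a stated pairing, and same-numbered libraries had correlations of deviations from the group means of -0.41, -0.18 and -0.13. With the replicate block 0 genes passed and GstD2 had an unadjusted limma p of 0.0225. In this balanced design the block cannot change a fold change. Depth limits GstD4, GstD6 and GstD7, which rest on 5 to 22 reads per library.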
